A study of Mus musculus with 24 samples.

Results

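The genes described here are the cytosolic translation initiation and elongation factors, taken as every gene of the count table whose symbol starts with Eif or Eef followed by a digit. The rule found 65 of 17811 genes, and 59 of the 65 passed the filter on low counts that left 9328 genes for testing. The libraries came from jejunal epithelium of 4 wild-type male C57BL/6 mice aged 10 weeks and kept on regular chow. Epithelial cells released with EDTA were stained for CD73 and CD26 and sorted into 6 gates per mouse, named V1 (most bottom of the villus), V2 (bottom), V3 (bottom-middle), V4 (middle), V5 (middle-tip) and V6 (tip). All 24 libraries, 4 per zone, were made by mcSCRB-seq, a bulk method that reads the 3′ ends of polyadenylated RNA and counts molecules by a random barcode (UMI), so that a level is not scaled by gene length. The zones are defined by the 2 surface stains and not by position seen under a microscope, and no group was treated or genetically altered.

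Initiation begins when eIF2 with GTP carries the initiator tRNA to the small ribosomal subunit, where eIF1, eIF1A, eIF3 and eIF5 assemble with it, while the eIF4 factors bind the cap of an mRNA and unwind its leader. eIF2B recharges eIF2 with GTP, eIF2 kinases block that step under stress, and the 4E-binding proteins keep the cap-binding protein eIF4E from its scaffold. The eEF1 complex then delivers aminoacyl-tRNA and eEF2 moves the ribosome along the message. In the intestine, cells leave the crypt, move up the villus over a few days and are shed from its tip. The age of the cells in each sorted zone was not measured.

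The library totals ran from 806541 to 2266261 UMIs, with a median of 1502948.5. The 65 members took between 0.493% and 1.14% of a library. Enterocyte markers were found in every library, with 9 of 9 listed genes holding a UMI in all 24, and their summed level rose from 16620 ± 6510 CPM (SD, n = 4) in V1 to 83840 ± 13700 CPM in V6. Levels are given as CPM, UMI counts relative to library size after scaling by trimmed mean of M values (TMM).

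Most called members fell toward the tip and a few rose. The slope, the log2 change per zone over 6 equally spaced zones, was called lower for 29 members and higher for 5, and was not called for 25 (edgeR quasi-likelihood test, Benjamini-Hochberg adjusted p under 0.05 over all 9328 genes). Over all genes tested, 22.8% were called lower and 22.1% higher. The median slope of the members was -0.10 and that of all genes tested -0.0047. Cytosolic ribosomal protein genes, the partners of these factors on the ribosome, had a median of -0.18 over 75 genes. The summed level of all members went from 9256 ± 884 CPM in V1 to 6838 ± 386 CPM in V6 (SD, n = 4). The size of the fall varied between role groups, and that difference was not tested. The eEF1 and eEF2 group, eIF3, eIF2 and eIF2B held 24 of the 29 called lower. The eIF4 factors and the eIF1, eIF1A, eIF5 and eIF5B group kept nearly level sums after TMM scaling. As a share of all UMIs, the eIF4 sum went from 0.113% in V1 to 0.0866% in V6. The share of the eIF1 group went from 0.0847% to 0.0702%. The eIF3 share went from 0.239% to 0.114%. Those of eEF1 and eEF2 (0.388% to 0.193%) and of eIF2 and eIF2B (0.0942% to 0.0468%) fell as well. Without mouse 1 the count called lower was 22 and the count called higher 3.

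**Figure D1:**
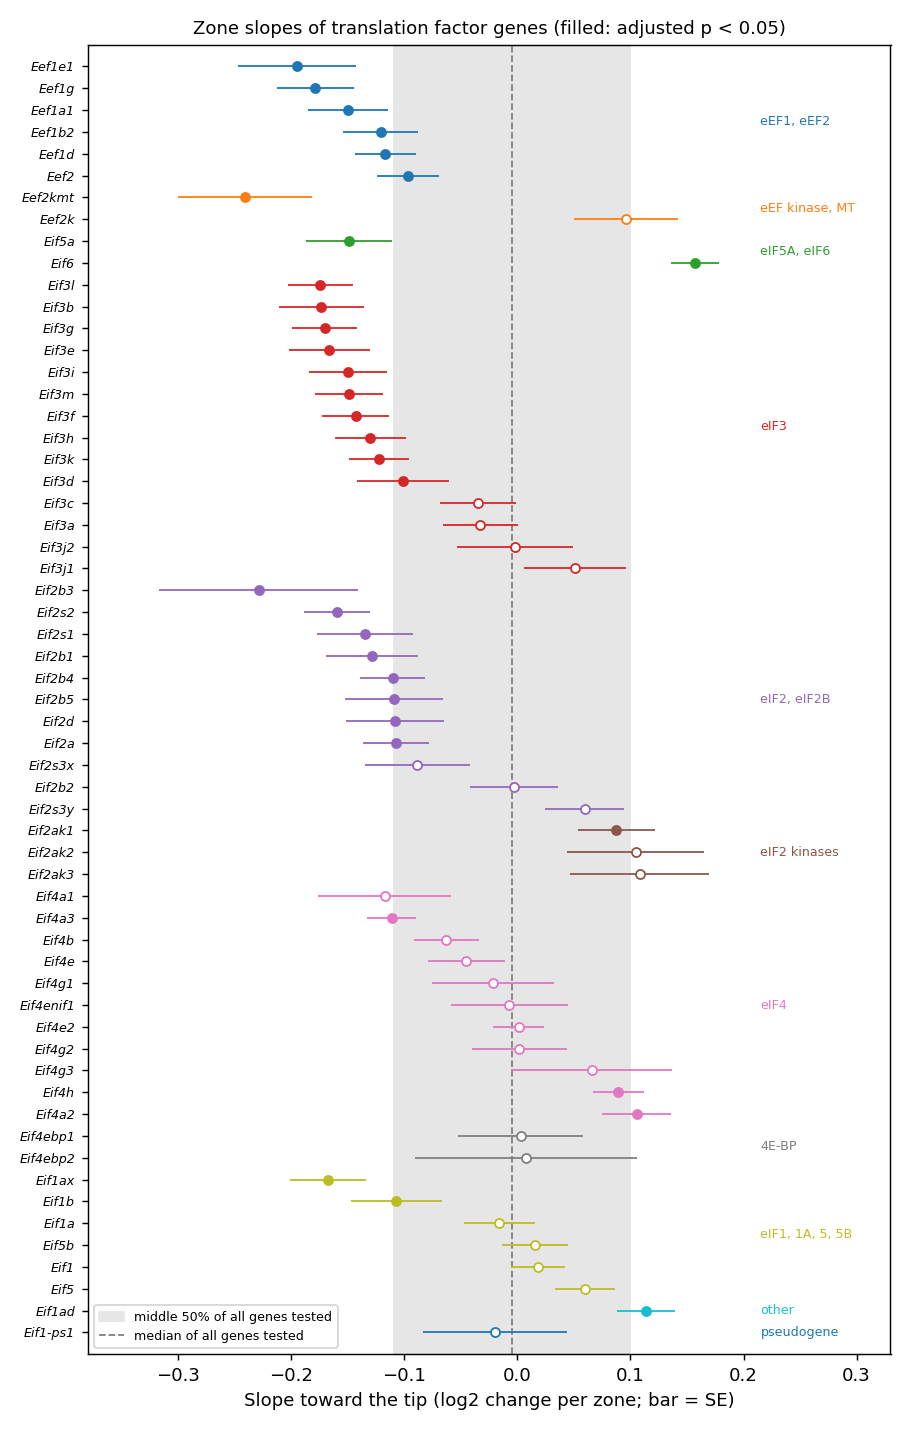
Slope of each tested member toward the tip (x axis, log2 change per zone; bars are standard errors), grouped by role, with filled points for adjusted p under 0.05 and a band for the middle 50% of all genes tested. The 6 genes of the eEF1 and eEF2 group and 10 of 14 eIF3 genes lie to the left as filled points, and Eif6 lies farthest to the right among the filled points.

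The start regions of 6 of these genes are shown as examples, picked by hand with their slopes known: Eef2, Eif3f and Eif3l were called lower, Eif4a2 and Eif4h higher, and Eif4a1 is the close paralog of Eif4a2, with a slope of opposite sign. Each runs from 40 bases before to 30 bases after the transcription start in RefSeq, build GRCm38.p6, on the transcript's strand from 5′ to 3′. Capitals mark runs of at least 7 bases that are each C or T and begin with C. They were searched on the transcript strand from 10 bases before to 50 after the start. Such runs at the first base of an mRNA are known from messages of the translation machinery (5′ terminal oligopyrimidine, or TOP, mRNAs). A marked run need not begin there: the Eef2 run lies after the start, and the second Eif3f run follows an atg.
Eef2 (chr10:81176591-81176660, plus strand): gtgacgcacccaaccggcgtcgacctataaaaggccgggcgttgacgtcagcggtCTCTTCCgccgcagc
Eif3f (chr7:108934375-108934444, plus strand): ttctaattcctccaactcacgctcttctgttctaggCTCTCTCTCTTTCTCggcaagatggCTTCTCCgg
Eif3l (chr15:79075183-79075252, plus strand): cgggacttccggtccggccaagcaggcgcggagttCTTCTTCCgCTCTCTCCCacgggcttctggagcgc
Eif4a1 (chr11:69672394-69672463, minus strand): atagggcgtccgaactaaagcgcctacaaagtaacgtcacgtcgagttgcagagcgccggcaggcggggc
Eif4a2 (chr16:23107428-23107497, plus strand): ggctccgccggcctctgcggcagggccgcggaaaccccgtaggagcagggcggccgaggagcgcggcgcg
Eif4h (chr5:134639380-134639449, minus strand): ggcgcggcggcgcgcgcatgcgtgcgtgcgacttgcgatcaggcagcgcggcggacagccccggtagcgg

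The 3 examples with a run do not stand for the members called lower, whose share with a run was below that of the members not called. RefSeq promoters matched 47 of the 59 tested members, with 61 promoters in all. The run was present in 8 of 28 promoters of members called lower (28.6%), in 1 of 4 of those called higher (25%) and in 11 of 29 of those not called (37.9%), against 25.1% of all promoters in the table. The hexamer CACGTG, which reads the same on both strands, was in 13 of 61 member promoters (21.3%), against 7.15% of all promoters and 10.4% of those of genes tested. The letters CCGGAAGT, on either strand, were in 10 of 61 (16.4%), against 3.89% and 8.85%. A match describes the letters in the window of 300 bases and is not a site of action.

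Elongation factors fell without exception among those listed. All 6 genes of the eEF1 and eEF2 group were called lower, with a median slope of -0.14. That group follows the gene symbols and also holds Eef1e1, an accessory protein of the tRNA synthetase complex. Eef1a1, the carrier of aminoacyl-tRNA and the most abundant member (GRCm38 chr9:78478449-78489151, minus strand), was at 1240, 1400, 1320 and 2150 CPM in V1 of mice 1 to 4 and at 815, 904, 818 and 1120 CPM in V6. Every V6 library lay below every V1 library. Its slope was -0.15 ± 0.035 (SE, adjusted p = 0.00154), and its mean in V6 was 59.8% of that in V1.

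Eef1g, a subunit of the exchange complex that recharges eEF1A, had V1 values of 449, 507, 366 and 493 CPM and V6 values of 224, 224, 194 and 265 CPM. The groups did not overlap, and V1 stood at 2.00 times V6 (slope -0.18 ± 0.034, adjusted p = 0.000184). Eef2, the translocase, went from 886, 985, 872 and 1290 CPM to 723, 654, 702 and 828 CPM. The highest V6 library was below the lowest V1 library, and this was the smallest called slope of the 6 (-0.097 ± 0.028, adjusted p = 0.00652). Eef1d and Eef1b2, both exchange subunits, fell to 62.7% and 63.2% of V1, and Eef1e1, an accessory protein of the tRNA synthetase complex, fell to 46.8%. The last exon of Eef1d overlaps that of Naprt on the same strand, so reads could be shared. Without mouse 1, Eef1b2 (adjusted p = 0.0583) and Eef1e1 (adjusted p = 0.0568) missed the threshold.

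eIF3, the large complex that holds the small subunit and the mRNA together, fell in most of its subunits. Of 14 genes, 10 were called lower, and the summed level went from 2100 ± 200 CPM in V1 to 1272 ± 110 CPM in V6. Among the 10, Eif3d was close to the threshold (adjusted p = 0.0461). It missed without mouse 1 (0.136), mouse 2 (0.0692), mouse 3 (0.0765) or mouse 4 (0.089), and was called with mouse as a block (0.00348). Eif3l had 161, 206, 148 and 178 CPM in V1 and 93.1, 96.6, 82.0 and 88.0 CPM in V6. V6 was at 51.9% of V1, with no overlap (slope -0.17 ± 0.029, adjusted p = 3.5e-05). Eif3f, the most abundant subunit gene, went from 435, 504, 401 and 551 CPM to 289, 248, 221 and 306 CPM, again without overlap (slope -0.14, adjusted p = 0.000449).

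Eif3g, which binds RNA, fell to 49.7% of V1 and Eif3m to 62.1%. The members without a call were Eif3a, Eif3c, Eif3j1 and Eif3j2. Eif3a, a core scaffold subunit, was at 52.7, 65.2, 53.2 and 72.5 CPM in V1 and at 42.0, 56.3, 67.9 and 63.9 CPM in V6. These values overlapped, and its slope of -0.033 ± 0.033 did not pass (adjusted p = 0.436). Eif3c, another scaffold subunit, had a slope of -0.035 ± 0.034 (adjusted p = 0.412). Whether these 4 differ from the other 10 subunits was not tested. Eif3j1 and Eif3j2 are near copies and their counts are uncertain for that reason.

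The group of eIF2, its exchange factor eIF2B and related initiator tRNA factors had 8 of 11 genes called lower. The summed level went from 826.8 ± 137 CPM in V1 to 516.8 ± 30.3 CPM in V6. Eif2s2, the beta subunit of eIF2, was at 370, 563, 439 and 337 CPM in V1 and at 182, 239, 219 and 265 CPM in V6. All V6 libraries were below all V1 libraries (slope -0.16 ± 0.029, adjusted p = 0.000134). Eif2b4 fell to 61.4%, Eif2b1 to 60.0% and Eif2a to 69.8% of V1; Eif2b1 encodes the regulatory alpha subunit of eIF2B and Eif2b4 its delta subunit, while Eif2a is a separate initiator tRNA-binding factor. With mouse as a block, the same 8 genes were called lower. Most of the calls were lost when 1 or another mouse was left out, in fits of fewer libraries. Without mouse 1, Eif2s1 (adjusted p = 0.0975), Eif2d (0.0704), Eif2b3 (0.079) and Eif2b5 (0.116) missed the threshold. Without mouse 2, Eif2b1 (0.0723), Eif2a (0.0594) and Eif2b3 (0.239) missed it. Without mouse 3, Eif2b1 (0.0733), Eif2d (0.125) and Eif2b5 (0.14) did. Without mouse 4, Eif2d (0.156), Eif2b3 (0.0718) and Eif2b5 (0.102) did. Eif2s2 and Eif2b4 kept their calls each time. Eif2b2, Eif2s3x and Eif2s3y were not called.

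**Figure D2:**
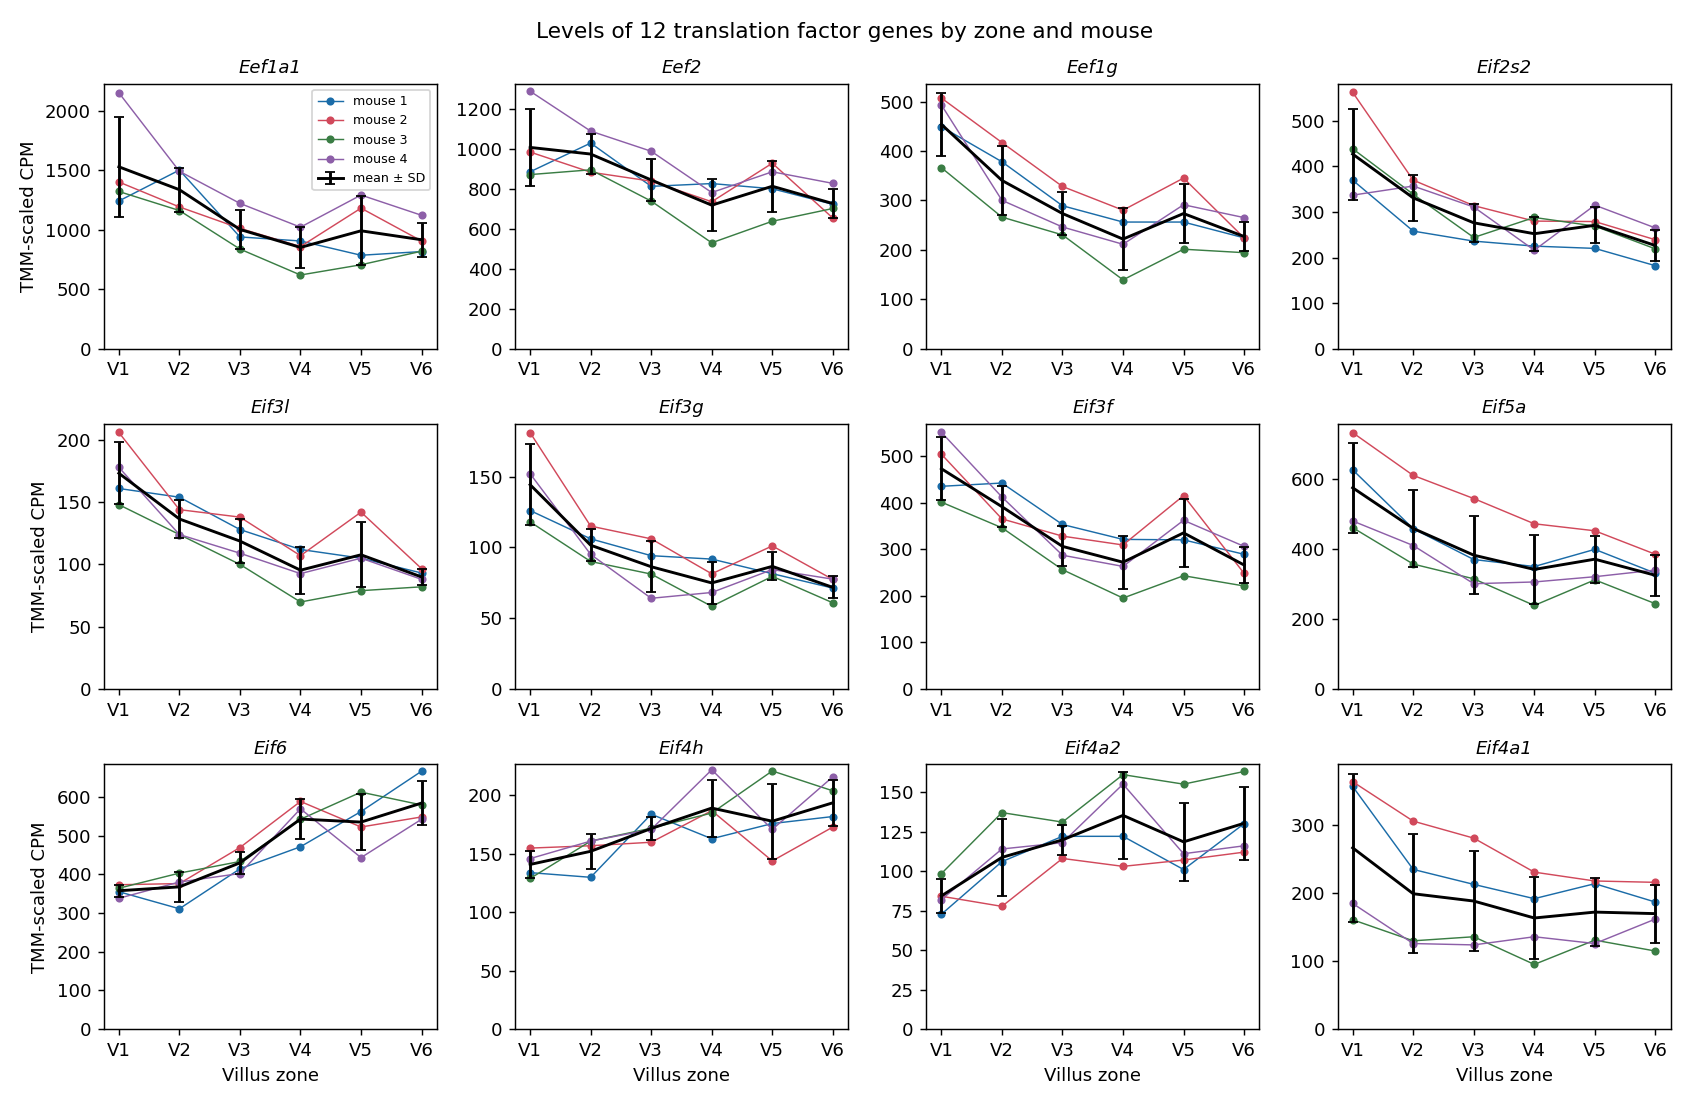
TMM-scaled CPM (y axis, from 0) of 12 members by villus zone (x axis), with a line per mouse and the mean ± SD of 4 mice in black. In the upper 8 panels the V6 libraries lie below the V1 libraries, in the Eif6, Eif4h and Eif4a2 panels they lie above, and the Eif4a1 panel shows 2 mice high and 2 low in every zone.

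Among the 10 pairs compared within libraries, Eif5a and Eif6 had the steepest ratio. Both genes were called on the slope in opposite directions, so their ratio restates those slopes and is not separate support. Eif5a, the hypusine-bearing factor that helps ribosomes through difficult peptide bonds, had 625, 731, 460 and 479 CPM in V1 and 330, 384, 243 and 339 CPM in V6. The groups did not overlap (slope -0.15 ± 0.038, adjusted p = 0.0029). Eif6, which binds the large ribosomal subunit and keeps it from joining the small one, had 355, 373, 364 and 338 CPM in V1 (GRCm38 chr2:155819832-155826925, minus strand). Its V6 values were 666, 548, 579 and 542 CPM, all above V1. The slope of Eif6 was 0.16 ± 0.021 (adjusted p = 2.99e-06), and V6 was 1.63 times V1. Most of that rise lay between V2 and V4, with means of 367.4 ± 39.8, 429.7 ± 29.2 and 542.3 ± 51.3 CPM in V2, V3 and V4. Within a library, the ratio of Eif6 to Eif5a went from 0.635 in V1 to 1.82 in V6 and rose in 4 of 4 mice (two-sided permutation of zones within mice, p = 1e-05, the smallest that 100000 resamples can give; adjusted p = 1e-04 over 10 pairs).

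The other 4 members called higher were Eif4a2, Eif4h, Eif1ad and Eif2ak1. Eif4h, which stimulates the eIF4A helicase, was at 134, 155, 129 and 146 CPM in V1 and at 182, 173, 204 and 216 CPM in V6, without overlap (slope 0.089 ± 0.023, adjusted p = 0.00273). Eif1ad, an eIF1A-like domain protein, went from 42.7, 48.0, 53.8 and 51.7 CPM to 66.9, 70.6, 67.9 and 69.7 CPM, also without overlap (slope 0.11 ± 0.025, adjusted p = 0.000932). Eif2ak1, the heme-regulated eIF2 kinase, went from 32.1, 25.7, 38.4 and 30.3 CPM to 43.8, 25.2, 46.0 and 45.0 CPM. Mouse 2 stayed low in V6, so the groups overlapped, and the call was close to the threshold (slope 0.088 ± 0.034, adjusted p = 0.0396). It was lost without mouse 1 (adjusted p = 0.134), without mouse 3 (0.0997), without mouse 4 (0.103) and without the V1 library of mouse 2 (0.0994).

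These rises depend on how the libraries are scaled. Scaling by total UMIs alone in place of TMM moved the median V6 minus V1 difference of all genes from -0.0007 to -0.34 on the log2 scale, and left Eif6 as the single member called higher (slope 0.090, adjusted p = 0.00149) beside 37 called lower. Under that scaling the slopes of Eif4a2 (0.041), Eif4h (0.023), Eif1ad (0.049) and Eif2ak1 (0.022) kept their sign and were not called. Over all genes it gave 13.1% called higher and 39.6% called lower.

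The eIF4 group of 11 genes is not limited to factors that act at the cap, since it holds Eif4a3. As a share of all UMIs it went from 0.113% in V1 to 0.0866% in V6. After TMM scaling its sum stayed nearly level, at 991.9 ± 53.3 CPM in V1 and 957 ± 51.7 CPM in V6. Below that sum, 2 genes rose (Eif4a2 and Eif4h) and 1 fell (Eif4a3, the helicase of the exon junction complex, to 68.5% of V1; slope -0.11 ± 0.022, adjusted p = 0.000259). With mouse as a block 3 were called lower, Eif4a1 and Eif4b (slope -0.063, adjusted p = 0.033) beside Eif4a3. Eif4e, the cap-binding protein itself, was at 49.8 ± 14.3 CPM in V1 and 40.8 ± 2.51 CPM in V6 and had no call (adjusted p = 0.292). The scaffold genes Eif4g1, Eif4g2 and Eif4g3 also had no call on the slope.

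The 2 helicase genes of the cap complex had slopes of opposite sign. Eif4a1 was at 357, 364, 161 and 185 CPM in V1 and at 187, 216, 115 and 162 CPM in V6. It was lower in V6 in 4 of 4 mice, but mice 1 and 2 were higher than mice 3 and 4 in every zone. Its slope of -0.12 ± 0.059 did not pass (adjusted p = 0.11); with mouse as a block it did (slope -0.10, adjusted p = 7.2e-05). Eif4a2 was at 72.7, 84.1, 98.4 and 82.0 CPM in V1 and at 130, 112, 163 and 116 CPM in V6. Its V6 libraries all lay above its V1 libraries (slope 0.11 ± 0.030, adjusted p = 0.0071), and without mouse 1 the call was lost (adjusted p = 0.052). The ratio of Eif4a1 to Eif4a2 fell from 2.96 in V1 to 1.29 in V6, in 4 of 4 mice (slope -0.21 ± 0.073 per zone, SD over mice, permutation p = 2e-04, adjusted p = 0.001). The last exon of Eif4a2 overlaps Rfc4 on the opposite strand, and whether counting used the strand is not given in the sources used here.

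**Figure D3:**
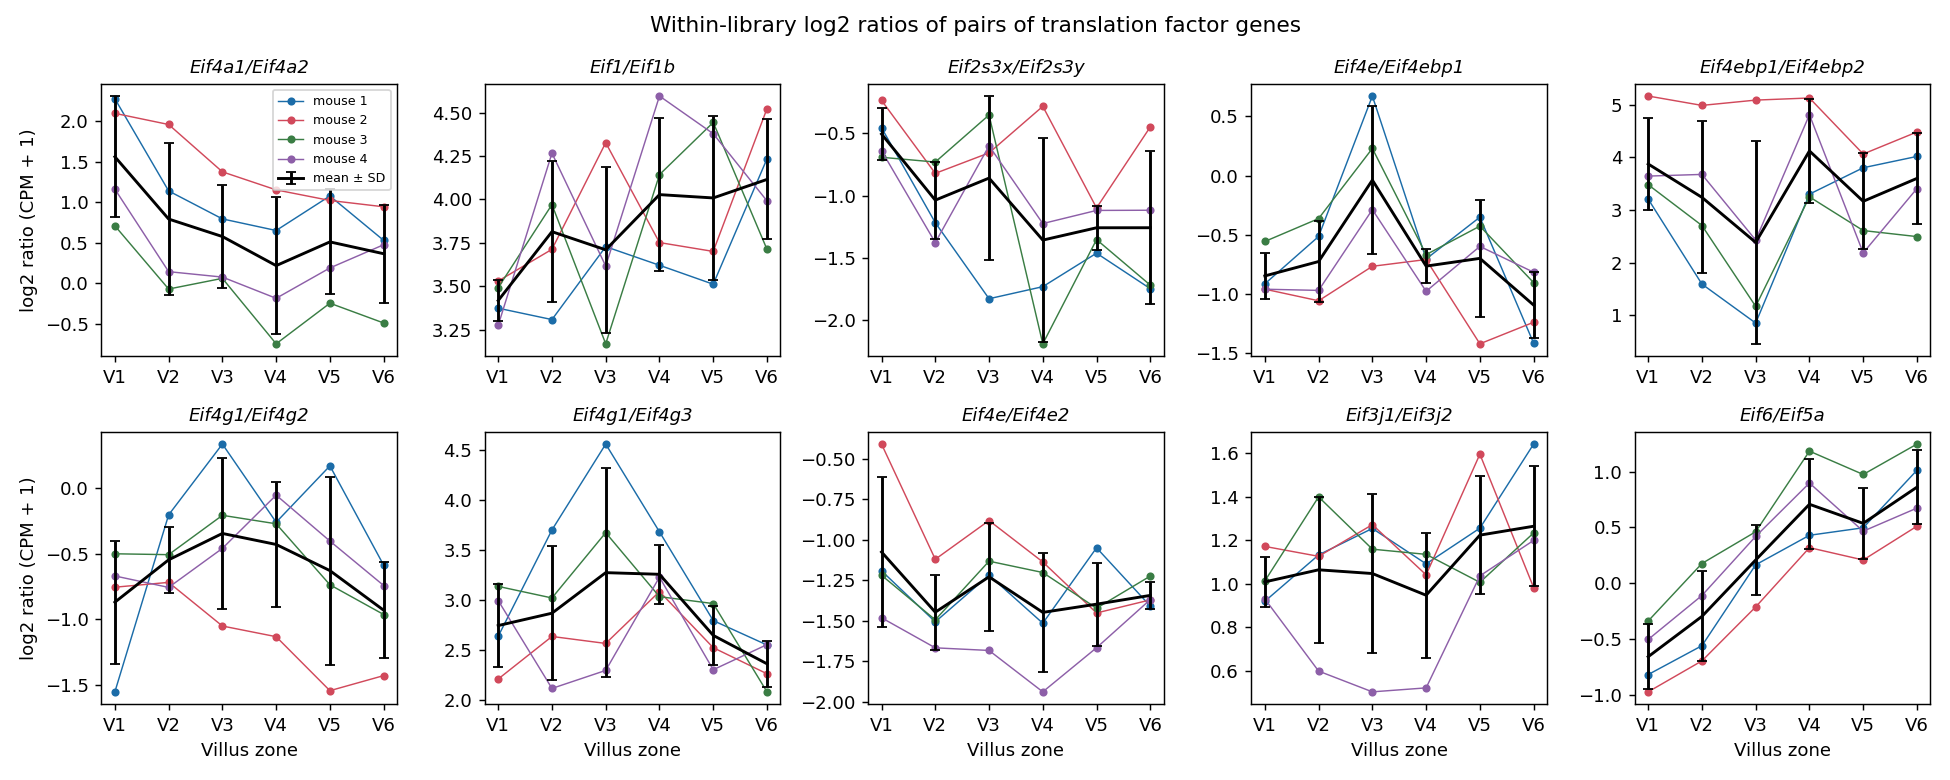
Log2 ratio of 2 members within each library (y axis, CPM + 1) by villus zone (x axis) for the 10 pairs tested, with a line per mouse and the mean ± SD in black. Eif6/Eif5a rises and Eif4a1/Eif4a2 falls in all 4 mice, while Eif4ebp1/Eif4ebp2 and Eif4g1/Eif4g2 differ between mice.

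Of the 10 pairs, 2 more were called. Eif1 over Eif1b, near copies of the start-codon selection factor, rose from 10.7 to 17.3 (adjusted p = 0.0322, permutation within 4 mice). Eif2s3x over Eif2s3y, the X- and Y-linked genes of the gamma subunit of eIF2, fell from 0.704 to 0.418 (adjusted p = 0.0322, permutation within 4 mice). Neither Eif2s3 gene was called on its own slope: Eif2s3x had -0.089 ± 0.047 (adjusted p = 0.125) and Eif2s3y 0.059 ± 0.035 (adjusted p = 0.17). The remaining 6 pairs, among them Eif4e over Eif4ebp1 (adjusted p = 0.418, permutation) and Eif4g1 over Eif4g2 (adjusted p = 0.825, permutation), were not called. Without mouse 1 the Eif1 and the Eif2s3 pair both had an adjusted p of 0.139, and without mouse 4 of 0.0628 (permutation), so 2 pairs were called. The Eif1 pair also missed without mouse 2 (0.0809) and the Eif2s3 pair without mouse 3 (0.133). Over V3 to V6 alone, 4 pairs were called as well, but the Eif4a1 to Eif4a2 slope was -0.034 (adjusted p = 0.579, permutation). There Eif4e over Eif4ebp1 fell (-0.31 per zone), Eif4g1 over Eif4g2 fell (-0.20), both with adjusted p = 0.0186 (permutation), and Eif4g1 over Eif4g3 fell (-0.33, adjusted p = 0.0216, permutation).

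The factors that scan for and accept the start codon had a nearly level sum, 743.4 ± 50.2 CPM in V1 and 777.4 ± 72.5 CPM in V6, and under total-UMI scaling that difference changed sign. Eif1ax fell to 58.1% of V1 (slope -0.17 ± 0.034, adjusted p = 0.000349), as did Eif1b to 66.0% (adjusted p = 0.0332), while Eif1, Eif1a, Eif5 and Eif5b had no call. Eif1b lost its call without mouse 2 (adjusted p = 0.0688), mouse 3 (0.0593) or mouse 4 (0.152). Eif5, the GTPase activator of eIF2, was at 159.5 ± 27.2 CPM in V1 and 198.5 ± 23.4 CPM in V6, and was called higher with mouse as a block (slope 0.060, adjusted p = 0.00984).

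Eef2k, the kinase that inactivates eEF2, was at 13.2, 16.0, 12.4 and 11.9 CPM in V1, at 2.60, 5.54, 6.30 and 7.90 CPM in V3 and at 18.2, 10.1, 20.5 and 13.7 CPM in V6. V3 lay below V1 and V6 in every mouse, without overlap. The curvature, the level at V1 and V6 minus a weighted mean of V2 to V5, was 0.89 ± 0.19 (log2; adjusted p = 0.00321), and Eef2k was the only member called on it; over all genes 2.86% were called in that direction. In the other direction 0 members were called, against 4.57%, and 2 had an unadjusted p under 0.05; DESeq2 and limma-voom each called 1 member in all. The counts behind it were low, 5 to 30 UMIs per library. With mouse as a block 13 members were called with higher ends and 3 with a higher middle (9.55% and 12.3% of all genes). Without mouse 1 the count of curvature calls with higher ends was 0, and without mouse 2 it was 2.

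Eif4ebp1, a repressor of eIF4E, was at 76.4, 138, 72.4 and 78.5 CPM in V1, at 27.0, 96.0, 40.2 and 42.7 CPM in V3 and at 104, 96.6, 76.4 and 78.8 CPM in V6. Mouse 2 was the highest in every zone but V6, and the other 3 mice were lowest in V3. The slope over all zones was 0.0030 ± 0.055 (adjusted p = 0.973); the curvature, 0.56 ± 0.21, was called with mouse as a block (adjusted p = 0.000132) and not without it (0.115). Eif2ak3 encodes PERK, the eIF2 kinase of the endoplasmic reticulum. It was at 10.0, 8.58, 16.7 and 9.51 CPM in V1, at 5.20, 7.39, 3.94 and 7.90 CPM in V3 and at 16.4, 11.8, 11.3 and 12.4 CPM in V6, again lowest on average in V3. Other members that restrain translation had other courses: Eif2ak1 had zone means of 31.6 CPM in V1 and 43.4 CPM in V3, Eif2ak2 of 13.8 and 20.2 CPM, and Eif4ebp2 of 5.29 and 10.2 CPM, its highest zone.

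From V3 to V6 alone, 1 member was called higher and 0 lower, against 2.57% and 0.0231% of 8643 genes. The member was Eef2k (slope 0.49, adjusted p = 0.0096). At an unadjusted p under 0.05 there were 4 higher and 1 lower of 58. With mouse as a block, 4 were called higher and 0 lower, against 6.79% and 0.868%: Eef2k (0.49, adjusted p = 0.000758), Eif4ebp1 (0.26, adjusted p = 0.00497), Eif2ak3 (0.37, adjusted p = 0.0257) and Eif6 (0.13, adjusted p = 0.0223). This count is near the share of all genes called higher in that fit.

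**Figure D4:**
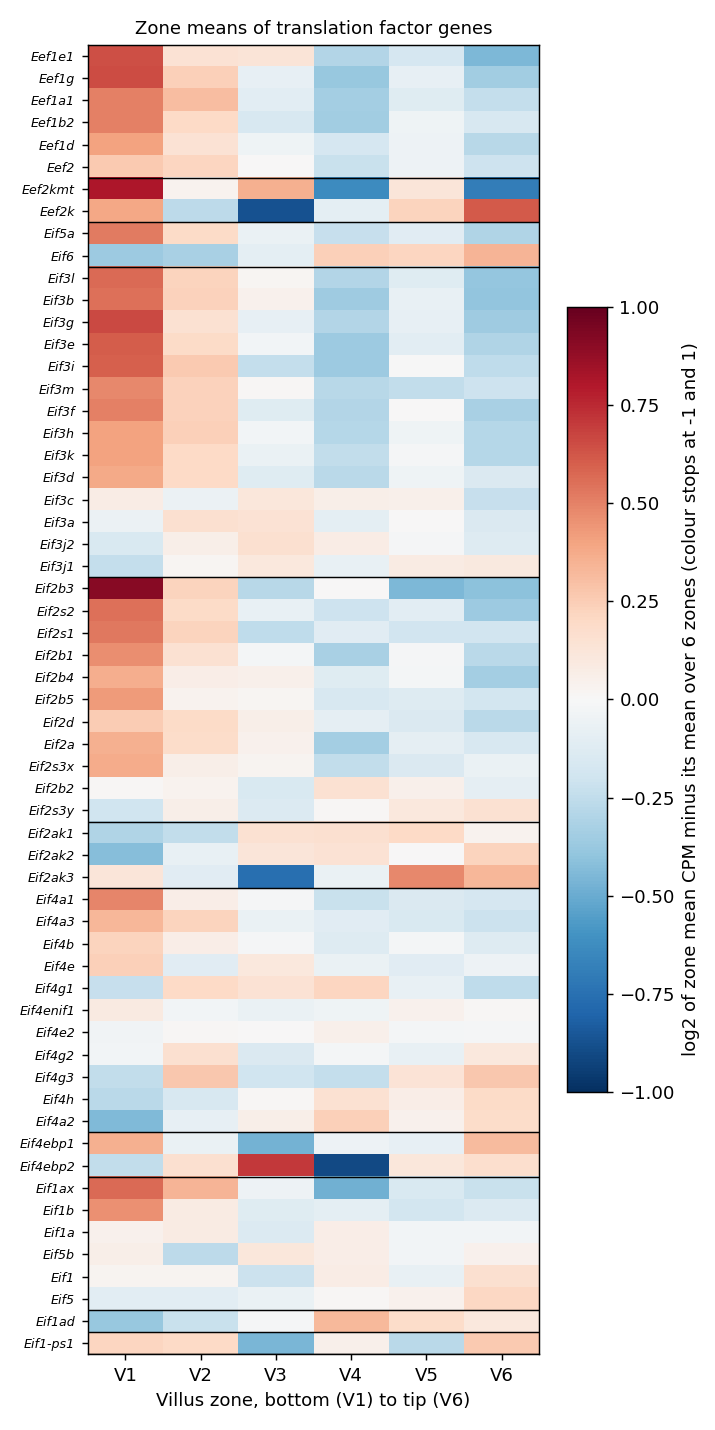
Zone mean CPM of each tested member as log2 difference from its own mean over 6 zones (colour, stopping at -1 and 1), by villus zone (x axis) and grouped by role. The 24 rows called lower among the elongation, eIF3 and eIF2 groups are red in V1 and blue in V6, while Eef2k, Eif2ak3 and Eif4ebp1 are blue in V3 and red again in V6.

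The remaining members were few or scarce. Eif2ak2, the double-stranded RNA-activated kinase, was at 13.8 ± 5.97 CPM in V1 and 21.6 ± 4.83 CPM in V6 and was not called (adjusted p = 0.162). Eif4ebp2 was at 5.29 ± 1.86 and 7.02 ± 4.03 CPM. Eef2kmt, the methyltransferase of eEF2, fell to 35.4% of V1 (slope -0.24 ± 0.059, adjusted p = 0.00217), from 18.5 ± 6.35 to 6.55 ± 2.22 CPM; its last exon overlaps Alg1 on the opposite strand. Eif1-ps1, a pseudogene of Eif1, had no call (adjusted p = 0.827). The 6 members that did not pass the filter were Eif2ak4 with 44 UMIs over all 24 libraries, Eif4a-ps4 with 79, Eif5al3-ps with 17, Eif3s6-ps1 with 14, Eif1-ps3 with 5 and Eif3s6-ps2 with 1.

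Pairs of zones were compared next. V4 against V1 gave 24 members called lower and 4 higher, against 17.5% and 19% of all genes, with a median difference of -0.48 (log2). V6 against V1 gave 26 lower and 4 higher, against 18.6% and 20.2%, with a median of -0.47. V6 against V4 gave 0 in either direction, against 0% lower and 0.45% higher over all genes, with a median of 0.016, so the count of 0 is near the share of all genes. In that last comparison 1 member had an unadjusted p under 0.05 in edgeR, and DESeq2 and limma-voom also called 0. With mouse as a block, V6 against V1 gave 30 lower and 5 higher (24.7% and 26.7% of all genes), V4 against V1 gave 31 lower and 5 higher (24.8% and 25.6%), and V6 against V4 gave 0 of either, with 4 members at an unadjusted p under 0.05 (0.0643% lower and 1.35% higher over all genes). The slope with the block gave 31 lower and 6 higher (27.8% and 27.6%). Any difference among zones was called for 23 members, against 27.4% of all genes, and for 36 with mouse as a block, against 48.6%. Without mouse 1 or mouse 4, 9 members were called in that last test.

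Members whose libraries did not overlap between 2 zones were counted too. Between V1 and V2, 4 members lay wholly lower in V2 and 0 wholly higher (2.7% and 4.1% of all genes); between V1 and V3 there were 17 lower and 3 higher (9.83% and 11.6%); between V1 and V6 there were 26 lower and 4 higher (16.5% and 17.9%). Between V2 and V6 there were 12 lower and 2 higher (6.9% and 10.6%). Between V3 and V6, 3 members were wholly lower (2.36%) and 3 wholly higher (6.41%). Over V2 to V6 the slope was called lower for 3 members (Eif4a3, Eif3l and Eif2s2) and higher for 2, against 2.85% and 9.61% of 8970 genes.

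Goblet cell markers moved over the same zones as the falling members. The summed level of 9 goblet genes, all with a UMI in every library, ranged from 48610 to 96390 CPM in V1 and from 9596 to 15880 CPM in V6; its zone means were 74020 CPM in V1, 37340 CPM in V2 and between 11590 and 11860 CPM from V3 on. Summed proliferation markers went from 344.5 ± 89 CPM in V1 to 157.3 ± 15.9 CPM in V6, with 6 of 6 genes present in all libraries. Summed stem cell markers went from 75.9 ± 30 to 28.3 ± 8.42 CPM, with 4 of 4 genes present in all libraries. Summed enteroendocrine markers were at 2111 ± 327 CPM in V1 (1856 to 2570), 618.3 ± 291 CPM in V4 and 5680 ± 1300 CPM in V6 (4595 to 7278), with 6 of 6 genes present in all libraries; 5 of 6 were called higher in V6 against V4 and 5 of 6 on curvature with higher ends, the shape of Eef2k and Eif4ebp1, and their part in those 2 results was not tested. Summed Paneth cell markers were at 12750 ± 5840 CPM in V1, 19050 ± 15600 CPM in V5 and 8584 ± 3550 CPM in V6. All 5 of 5 genes were present in all libraries and 0 were called on the slope. In V5 the sum ranged from 4940 to 37950 CPM between mice. Leukocyte markers were low, 26.6 ± 22.6 CPM in V1 and 254 ± 22.7 CPM in V6, and 2 of 9 had a UMI in all libraries. The mesenchymal genes Col1a1, Col1a2, Col3a1 and Dcn were at 0 in 12 or more libraries. The mitochondrially encoded share went from 3.31% ± 0.886 in V1 to 8.1% ± 1.21 in V6.

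With a goblet score and mouse both in the fit, 0 members were called on the slope, where 3.07% of all genes were called higher and 0.954% lower; at an unadjusted p under 0.05 there were 11 lower and 4 higher. The slope of Eef1a1 in that fit was -0.19 (adjusted p = 0.112), that of Eif3l -0.18 (adjusted p = 0.109), that of Eif6 0.19 (adjusted p = 0.091) and that of Eif2s2 -0.0012. The goblet score follows the zone, so these cannot be told apart here, nor can fewer cells of a type and less RNA per cell in such bulk samples.

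**Figure D5:**
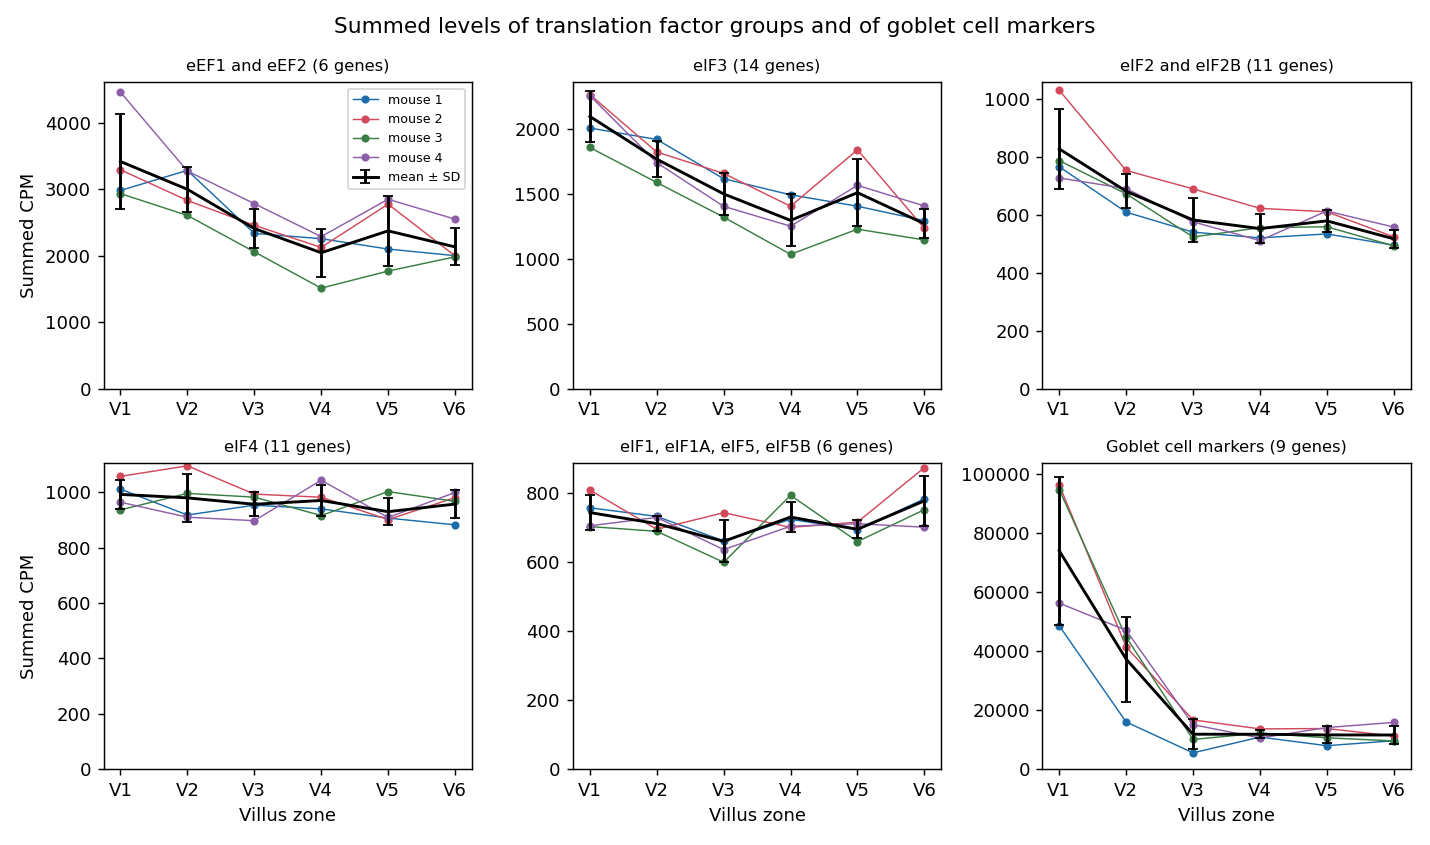
Summed CPM (y axis, from 0) of 5 role groups and of 9 goblet cell markers by villus zone (x axis), with a line per mouse and the mean ± SD of 4 mice in black. The eEF1 and eEF2, eIF3, and eIF2 and eIF2B sums fall from V1 to V4, the eIF4 and the eIF1, eIF1A, eIF5 and eIF5B sums stay nearly level, and the goblet sum falls from V1 to V3.

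Other genes of the pathway were counted by list, against the 22.8% of all genes called lower and 22.1% called higher on the slope. Of the mTORC1 and eIF4E control list, 4 of 14 were called lower and 2 higher, near those shares. Deptor, an inhibitor of mTOR, had a slope of -0.17 (adjusted p = 0.00135) and Pdcd4, which blocks eIF4A, -0.18 (adjusted p = 0.00352); Larp1 and Mknk2 were the others called lower. Those called higher were Mtor, the kinase itself (0.19, adjusted p = 0.00366), and Rps6kb2, a ribosomal protein S6 kinase (0.12, adjusted p = 0.0202). Of the eIF2 phosphatase and ATF4 target list, 4 of 9 tested were called higher and 0 lower. With mouse as a block 4 were called higher and 1 lower, against 27.6% and 27.8% of all genes. Ppp1r15a, the stress-induced eIF2 phosphatase subunit, was at 2.00 ± 0.946 CPM in V1 and 9.04 ± 4.82 CPM in V6 (slope 0.49 ± 0.092, adjusted p = 0.000184). Ddit3, a stress transcription factor, went from 12.1 ± 4.19 to 29.2 ± 7.16 CPM (adjusted p = 0.000178), while Atf4 itself had no call (adjusted p = 0.454).

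Of the poly(A)-binding list, 1 of 4 tested fell, near the 22.8% of all genes (Pabpc1, slope -0.11, adjusted p = 0.04), and Paip2, which displaces that protein from mRNA, was called with mouse as a block (adjusted p = 0.00319) and not without it (0.0585). Of 5 tested termination and recycling genes, 2 fell: Abce1, which splits ribosomes (slope -0.25, adjusted p = 0.000706), and Denr, a recycling factor (adjusted p = 0.016). Dohh, which completes the hypusine of eIF5A, also fell (slope -0.098, adjusted p = 0.00257). Of 8 mitochondrial translation factors, 3 fell, with Tufm at -0.12 (adjusted p = 0.000296) and Tsfm at -0.22 (adjusted p = 0.0024). With mouse as a block 4 of them fell, where 27.8% of all genes were called lower. Of 10 members on a list of TOP mRNAs, 8 were called lower (median slope -0.13), and of the 49 other tested members 21 were called lower and 5 higher (median -0.033).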

How the data were processed

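The authors deposited raw UMI counts per gene and library; the submitters' processing notes name bcl2fastq 2.15.0.4 and build GRCm38, the table's name holds zUMIs, and no source used here gives the aligner or its settings. Totals of 806541 to 2266261 UMIs set the precision. Genes passed filterByExpr (minimum count 10, minimum total 15). edgeR 4.0.16 (R 4.3.3) with TMM fitted zone means over 24 libraries, and p-values were Benjamini-Hochberg adjusted over 9328 genes. DESeq2 1.42.0 and limma 3.58.1 were alternatives. Same-mouse libraries share an animal, per the labels, and deviated together (mean r 0.422, lowest 0.184, 60 of 60 pairs). A fit with mouse as a block is therefore given for some of the calls that it changes, not for all. Pair ratios used CPM + 1. IDs matched GENCODE M21 for 17741 of 17811 genes and 65 of 65 members. Libraries of 1 zone always differed by more than counting error (chi-square over degrees of freedom 3.35 to 27.5 in 36 pairs). On simulated data for the slope (9184 genes), the fit found 62.6% of changes sized 0.2 per zone and 99% of those sized 0.4. That simulation held no effect of mouse and no smaller size. The median slope of the members was -0.10, and recovery at that size was not simulated. Named members were the smallest adjusted p per role group, the most abundant, risers, pairs and curvature; Eef2, Eif3a and Eif3c were added after their values were seen. The members and lists were chosen with earlier results of these data known.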

Additional observations from a re-analysis of the deposited data

Results flagged for a closer look

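In 20 of 324 groups of 4 libraries (6.17%), 1 library stood apart by Dixon's criterion, which chance exceeds in about 1 of 20 groups. Mouse 2 stood above the other 3 mice for Eif4ebp1 in V1 (138 CPM, others 72.4 to 78.5) and in V5 (108 CPM, others 51.8 to 56.1), and so did the summed 4E-binding proteins (140.7 CPM in V1 and 113.6 CPM in V5). Mouse 2 was also high for Eef1e1 in V3 (22.2 CPM), Eif1-ps1 in V3 (10.5 CPM) and the summed eIF5A and eIF6 in V2 (985 CPM). It was low in V6 for Eif2ak1 (25.2 CPM, others 43.8 to 46.0) and Eif3j1 (12.6 CPM, others 39.6 to 42.0), and in V4 for Eif4g2 (108 CPM).

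Mouse 4 was high for Eef1b2 in V1 (306 CPM), Eif3j1 in V1 (31.5 CPM), Eif4b in V4 (51.7 CPM), Eif4a3 in V6 (82.1 CPM) and the summed eEF1 and eEF2 in V6 (2550 CPM). Mouse 3 was low for Eif2a in V2 (34.8 CPM) and for all members summed in V2 (7528 CPM), and high in V5 for Eif5 (198 CPM) and the summed eIF4 factors (1002 CPM). Mouse 1 was low for Eif4h in V2 (130 CPM).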

How the results depend on the processing

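Of 191 recomputed counts, 158 stayed within 1.5 times the value reported. With the replicate block, any zone difference was called for 36 members, and curvature for 13 with higher ends and 3 with a higher middle. These counts were 35, 15 and 2 with the i7 barcode of the sample sheet as a block, on the assumption that it marks a sequencing pool. That barcode followed the mouse except in the V1 library of mouse 2, which shared it with mouse 1. The barcode block is therefore nearly the same fit as the replicate block and not a separate check. With the replicate block the V3 to V6 count called higher went from 1 to 4. Of the other counts over all members, none moved by over 1.5 times. Within role groups several counts moved, among them V4 minus V1 in the eIF2 and eIF2B group, from 4 to 8 lower. In the eIF4 group the slope and V4 minus V1 each went from 1 to 3 lower. With the goblet score added to the block, slope, V6 minus V1 and V4 minus V1 gave 0 members lower and 0 higher, curvature 0 and any zone difference 4. Total-UMI scaling left 1 member called higher on the slope, 1 in V6 minus V1 and 0 in V4 minus V1, turned Eif4e2 to -0.064 and the summed eIF1 group to -145 CPM. A mean of at least 50 CPM left 33 members, with 19 called lower on the slope and 2 on curvature. Over V2 to V6, 3 were lower and 2 higher; over V3 to V6, 0 lower (0 with the block) and 1 higher (4 with the block). There Eif2ak1 turned to -0.030 (-0.030 with the block), Eif3i to 0.026 (0.031) and Eef1b2 to 0.030 (0.026), none called; the cause was not tested. Without each mouse in turn, members called higher ranged from 3 to 5 on the slope, 1 to 4 in V6 minus V1 and 2 to 4 in V4 minus V1, any zone difference from 9 to 17 (18 without the V1 library of mouse 2), curvature with higher ends from 0 to 2, and pairs called from 2 to 3. Depth limits the scarce members such as Eef2k and Eif2ak3, with as few as 5 and 3 UMIs in a library.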
